A study of Mus musculus with 6 samples.

Results

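The genes described here lie on mouse chromosome 17 on either side of the H2 interval, the major histocompatibility complex of the mouse. They were chosen by position alone, from the gene coordinates of the count table on build GRCm38. A gene belonged to the proximal flank when its first base lay between 30 and 33.99 megabases (Mb) and to the distal flank when it lay between 36.2 and 40 Mb. Of 281 genes in these windows, 15 with an H2 symbol and Tapbp, which encodes a chaperone of antigen loading, were left out. The remaining 265 of the 47729 genes in the table comprised 116 genes in the proximal and 149 in the distal flank. The rule itself used no measured value, but it was set with earlier results of these data known.

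Bulk RNA-sequencing was carried out on spleens of female NOD.B10Sn-H2b/J (NOD.B10) mice with clinical disease, a model of primary Sjögren's syndrome, and of female C57BL/10 (BL/10) controls, with 3 libraries per strain. No treatment or targeted deletion is named for either group. The mice are described as matched for age, but by the labels the 3 NOD.B10 mice and BL/10 replicate 1 were 26 weeks old and BL/10 replicates 2 and 3 were 36 weeks old. The labels also contradict each other on strain. In each of the 6 libraries the description and the column of the count table name one strain, while the title and the strain field name the other. The strain of the description and column is used here, and every direction below would be reversed under the titles. NOD.B10 is a congenic strain, in which the H2 locus of a donor of the H2-b haplotype was bred onto the genetic background of the NOD mouse. Each breeding step that moves such a locus can also carry over DNA on its sides, and crossing over sets where the carried segment ends. Genes in the flanks of the locus can therefore be of donor or of NOD origin in a congenic mouse. Where the carried segment ends in NOD.B10 was not determined here, and counts per gene do not show which allele a read came from.

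The libraries held between 15662712 and 18298451 counts assigned to genes, so that 3 counts, used as the floor of detection, stood for 0.164 to 0.192 CPM, the count scaled to library size. The spleen markers fixed for T cells, B cells, neutrophils, erythroid cells, red pulp macrophages and plasma cells were all read in both strains. The share of counts on T cell markers was 0.0836 to 0.117% across the NOD.B10 libraries and 0.0426 to 0.0558% across those of BL/10. For neutrophil markers the share was 0.22 to 0.245% against 0.606 to 1.2%. Plasma cell markers had 0.308 to 0.351% in NOD.B10 and 0.192 to 0.248% in BL/10. Of these 6 markers, 5 were called higher in NOD.B10 (against 9.11% of all genes tested) and 1 had a negative log2 fold change (-0.26). B cell markers had 0.452% in BL/10 replicate 1 and 0.232 to 0.256% in the other BL/10 libraries, with 0.321 to 0.424% in NOD.B10. Markers of pancreatic acinar cells, which a spleen sample can carry from adjoining tissue, took up 1.29%, 0.186% and 0.0107% in BL/10 replicates 1, 2 and 3 and at most 0.00315% in NOD.B10, where Amy2a5, Try4 and Clps were at 0 in some libraries. In bulk RNA, fewer cells of a type and less RNA per cell cannot be told apart.

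Most genes of the flanks were silent or nearly so in the spleen. Of the 265 members, 124 had no count in any library and 40 had 1 to 9 counts over all 6 libraries. The expression filter was passed by 78 members, 63 in the proximal and 15 in the distal flank, and 23 of the 187 that did not pass had 10 or more counts in all. The distal flank holds a cluster of olfactory receptor genes, which are transcribed mainly in the sensory neurons of the nose, and 46 of the 62 members of that family were at 0 in every library. Olfr99 alone among them passed the filter, with 1.37 ± 0.132 CPM in NOD.B10 and 1.3 ± 0.452 in BL/10 (SD, n = 3). All 9 genes of the exocrine gland-secreted peptide (Esp) family, which code for pheromone peptides, were at 0. Among the members, 156 were protein coding, and 31 unprocessed and 29 processed pseudogenes made up most of the rest.

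The 4 members Rasal3, Pglyrp2, Cyp4f16 and Tmprss3 had an adjusted p under 0.01 by edgeR and stayed called whichever library was left out, although Tmprss3 had few reads. The sequences just upstream of their start sites are given to show what lies at these promoters. Rasal3 encodes a Ras GTPase-activating protein of hematopoietic cells, its neighbor Pglyrp2 an amidase that cleaves bacterial peptidoglycan, Cyp4f16, a cytochrome P450 of the fatty acid ω-hydroxylase family, and Tmprss3, a membrane-bound serine protease. The 250 bases before each start are from RefSeq on build GRCm38.p6, written 5′ to 3′ on the strand of the gene. Capitals mark matches to the motifs searched on both strands, which were the GC box (GGGCGG), the ETS core (CGGAAG), the CCAAT box (CCAAT), the TATA box (TATAAA), the RUNX core (TGTGGT), the E-box (CACGTG) and the core of the interferon-stimulated response element (GAAA, any 2 bases and GAAA). Rasal3 is shown from chr17:32403583-32403832 (minus strand), Pglyrp2 from chr17:32420976-32421225 (minus strand), Cyp4f16 from chr17:32536307-32536556 (plus strand) and Tmprss3 from chr17:31198975-31199224 (minus strand).
Rasal3: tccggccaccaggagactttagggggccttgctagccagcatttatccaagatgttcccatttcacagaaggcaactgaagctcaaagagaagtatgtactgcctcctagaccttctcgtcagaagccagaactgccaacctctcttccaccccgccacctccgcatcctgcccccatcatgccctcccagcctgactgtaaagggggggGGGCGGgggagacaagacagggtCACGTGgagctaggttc
Pglyrp2: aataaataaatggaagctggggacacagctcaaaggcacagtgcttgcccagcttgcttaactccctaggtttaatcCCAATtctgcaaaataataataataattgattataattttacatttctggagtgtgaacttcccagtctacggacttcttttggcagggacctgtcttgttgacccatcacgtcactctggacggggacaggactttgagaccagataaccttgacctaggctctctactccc
Cyp4f16: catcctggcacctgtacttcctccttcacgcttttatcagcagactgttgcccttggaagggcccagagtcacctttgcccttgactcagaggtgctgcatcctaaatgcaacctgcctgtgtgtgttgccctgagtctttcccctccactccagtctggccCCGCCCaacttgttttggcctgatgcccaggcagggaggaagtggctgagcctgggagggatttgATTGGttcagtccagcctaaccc
Tmprss3: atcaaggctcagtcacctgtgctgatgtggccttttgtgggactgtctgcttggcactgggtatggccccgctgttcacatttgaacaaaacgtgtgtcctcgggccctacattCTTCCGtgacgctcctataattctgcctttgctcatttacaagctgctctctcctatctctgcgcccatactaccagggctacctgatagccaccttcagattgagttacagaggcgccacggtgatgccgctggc

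The Rasal3 sequence held a GC box and an E-box and had 6 CpG dinucleotides, the median of all 32851 RefSeq promoters of this length. A CCAAT box was the one match at Pglyrp2, whose RefSeq start lies inside the longer gene model of the count table, and this sequence had 3 CpG. Cyp4f16 had a GC box and a CCAAT box, both read on the opposite strand, and Tmprss3 an ETS core on the opposite strand. These motifs are common. The GC box was present in 32.7%, the CCAAT box in 33.8%, the ETS core in 13.6% and the E-box in 6.02% of all promoters, and none of the 7 motifs was shared by the 4 sequences. A match of letters is a description of the sequence and does not show that a factor binds there.

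Whether genes beside the H2 interval differed between NOD.B10 and BL/10 spleens was asked with edgeR's quasi-likelihood test, fitted on all 15330 genes that passed the filter. Of the 78 members tested, 10 (12.8%) had a Benjamini-Hochberg adjusted p under 0.05, and across all genes tested the share was 17.3%. The flanks therefore held no larger a share of called genes than the whole transcriptome. Of the 10, 8 were higher in NOD.B10 (9.11% of all genes were) and 2 were lower (8.22% of all genes were). The proximal flank had 8 of 63 (12.7%) and the distal flank 2 of 15 (13.3%). The counts of the strains did not overlap, after scaling for library size, for 26 of 78 members (33.3%), against 38.0% of all genes. The median absolute log2 fold change of the members was 0.235 and that of all genes tested was 0.239. Between the flanks, in the H2 interval itself, 7 of 119 genes tested were called (5.88%), and on the rest of chromosome 17 93 of 541 (17.2%), with no test of these differences made. At an unadjusted p under 0.05 the members counted 25 of 78, against 34.2% of all genes, and at an adjusted p under 0.01 they counted 4, against 6.75%. By DESeq2, 12 members were called, against 21.7% of all genes. No member was read in 1 strain only by the rule of at least 10 counts in each library of one strain and at most 3 in each of the other.

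**Figure D1:**
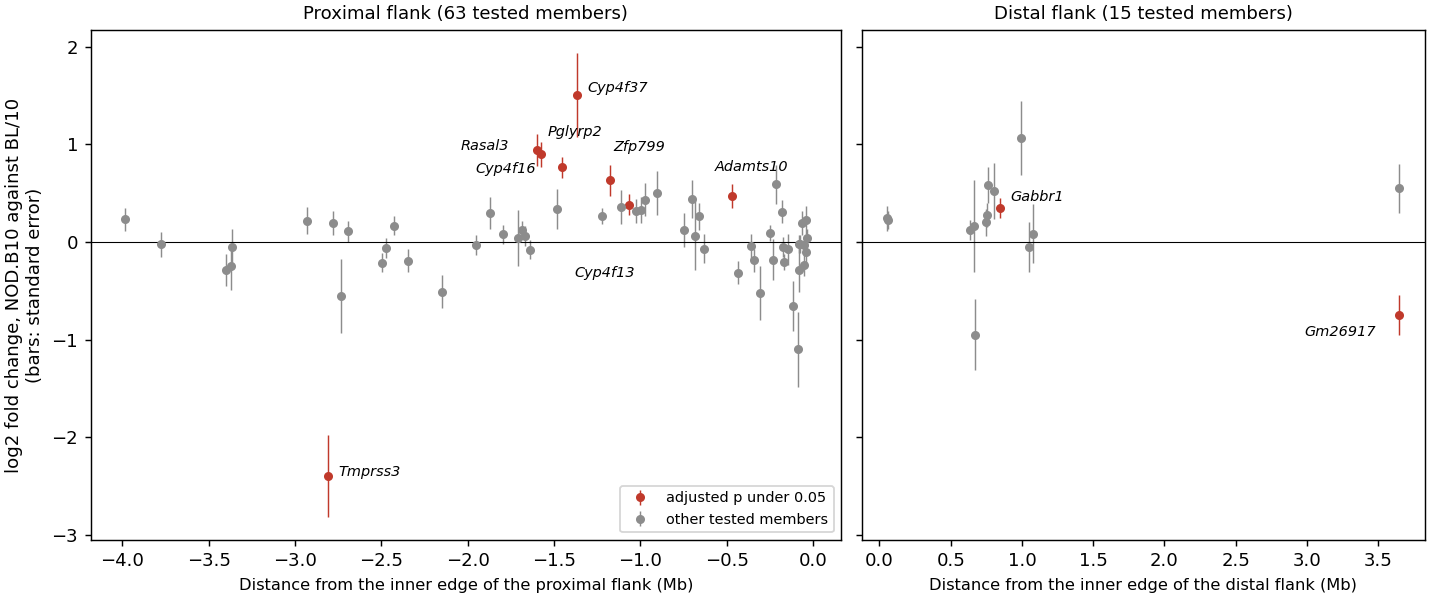
Log2 fold change (NOD.B10 against BL/10, y axis) of the 78 tested members by distance in megabases (Mb) from the edge of their flank that faces the H2 interval (x axis), with bars for the standard error and red points for adjusted p under 0.05. Of the 10 red points, 6 lie close together in the proximal flank, between Rasal3 and Cyp4f13, and all 6 are above 0.

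By position, the called members were not spread evenly along the chromosome. In bins of 1000000 bases, 0 of 5 tested members were called from 30 Mb, 1 of 10 from 31 Mb, 6 of 18 from 32 Mb and 1 of 30 from 33 Mb. In the distal flank, the counts were 0 of 8 from 36 Mb, 1 of 5 from 37 Mb and 1 of 2 from 39 Mb, and none of the 18 members from 38 Mb passed the filter. Across all genes tested, 17.3% were called and 9.11% were called higher in NOD.B10, and bins with few tested members can hold 0 or 1 call at such shares. All 6 called members of the bin from 32 Mb (33.3% of those tested there) were higher in NOD.B10, and its median log2 fold change was 0.32. The bin from 33 Mb had a median of -0.02. The bins start at whole megabases, and no test was made of 1 bin against another, since neighboring genes are not independent.

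**Figure D2:**
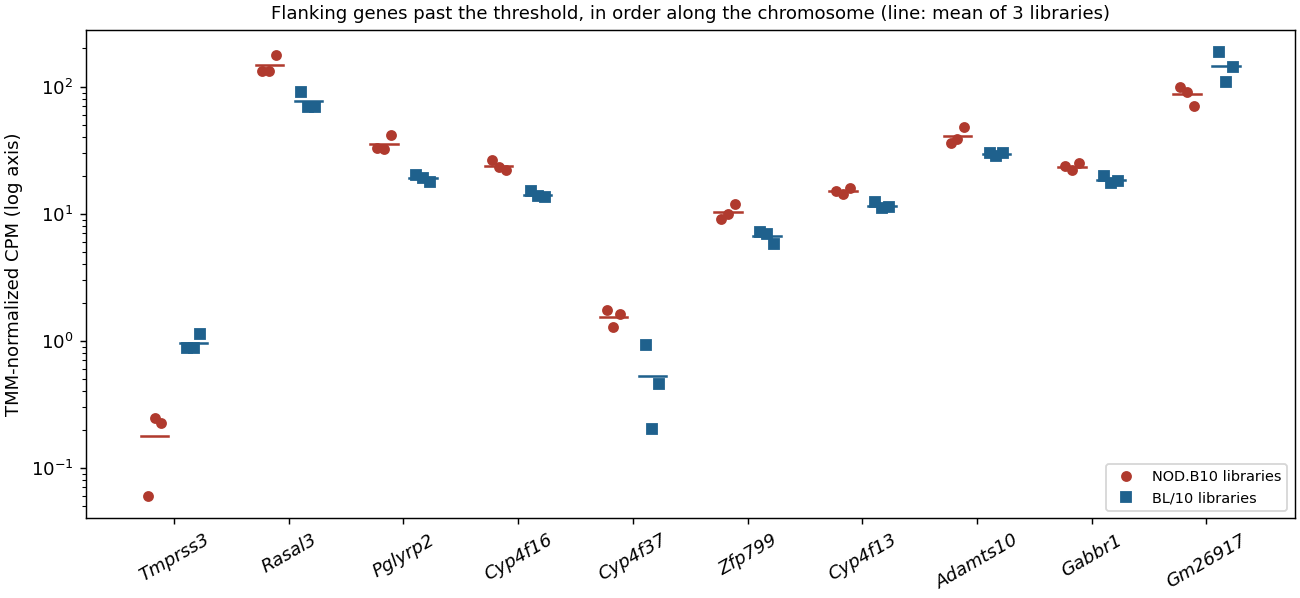
TMM-normalized CPM (log scale, y axis) of the 10 members with adjusted p under 0.05 (x axis), with a red circle for each of the 3 NOD.B10 libraries, a blue square for each of the 3 BL/10 libraries and a line for the mean of each strain. The points of the strains do not overlap for any of the 10, and the NOD.B10 points lie below those of BL/10 for Tmprss3 and Gm26917.

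Rasal3 (ENSMUSG00000052142, chr17:32390659-32403583, minus strand) encodes a protein that dampens Ras signaling and is needed for the survival of naive T cells. Its CPM was 132, 133 and 179 in the NOD.B10 libraries and 91.3, 69.3 and 69.8 in BL/10. All NOD.B10 libraries lay above all BL/10 libraries, with means of 148 ± 26.8 and 76.8 ± 12.6 CPM (SD, n = 3). The log2 fold change was 0.94 ± 0.16 (SE, 1.92-fold, adjusted p = 0.00776 by edgeR's quasi-likelihood test). Per length of transcript, this was the highest level among the 8 members that were higher in NOD.B10, at 30.2 RPKM, which divides CPM by the length in kilobases, in NOD.B10 and 15.7 RPKM in BL/10. Of 10 T cell markers, 8 were called higher in NOD.B10 (against 9.11% of all genes) and 1 had a negative log2 fold change (-0.40). The median of these markers was 1.19, and their part in the difference of Rasal3 was not tested. Ubash3a, a member of the proximal flank that codes for a negative regulator of T cell receptor signaling, was named after its values were seen. It had 22.3 CPM in NOD.B10 and 19.5 in BL/10, overlapping libraries and an adjusted p of 0.288, and 1 gene named this way does not measure T cell content.

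Pglyrp2 (ENSMUSG00000079563, chr17:32413100-32424167, minus strand) lies 9516 bases beyond Rasal3 and is read from the same strand. The NOD.B10 libraries had 32.8, 32.4 and 41.5 CPM and the BL/10 libraries 20.3, 19.2 and 17.9. Again the strains did not overlap, and in both genes NOD.B10 replicate 3 was the highest library. Means were 35.6 ± 5.16 and 19.1 ± 1.18 CPM (SD, n = 3), and the log2 fold change was 0.90 ± 0.12 (SE, 1.86-fold, adjusted p = 0.00309). On the other side of Rasal3, the zinc finger gene Wiz, which takes part in histone methylation by the G9a complex, ends 1257 bases away. Its libraries overlapped between the strains, at 33.0, 30.8 and 33.3 CPM in NOD.B10 and 30.8, 33.9 and 37.6 in BL/10 (log2 fold change -0.08, adjusted p = 0.618).

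The Cyp4f genes follow Pglyrp2 along the chromosome. They encode cytochrome P450 enzymes that hydroxylate the end of long fatty acid chains, with leukotriene B4 and other eicosanoids among the substrates of the family. Of 8 members in this family, 4 passed the filter, 3 of these were called higher in NOD.B10 (against 9.11% of all genes), and the libraries of all 4 lay higher in NOD.B10 without overlap (against 20.5%). Cyp4f16 (ENSMUSG00000048440, chr17:32536558-32551798, plus strand) had 26.3, 23.5 and 22.1 CPM in NOD.B10 and 15.0, 13.7 and 13.6 in BL/10. Libraries of each strain lay close together, and the log2 fold change was 0.76 ± 0.11 (SE, 1.70-fold, adjusted p = 0.00338). Cyp4f37 (chr17:32621319-32636184) was read far less often, with 29, 21 and 29 counts across NOD.B10 and 17, 3 and 8 across BL/10, a log2 fold change of 1.5 ± 0.43 and an adjusted p of 0.0487. Cyp4f13 (chr17:32924688-32947402) had 15.1 ± 0.828 CPM in NOD.B10 and 11.6 ± 0.732 in BL/10 (SD, n = 3), a log2 fold change of 0.38 ± 0.11 (SE, adjusted p = 0.0463). Cyp4f17 had 2.15, 2.40 and 2.70 CPM in NOD.B10 and 1.63, 2.08 and 2.05 in BL/10 (log2 fold change 0.34, adjusted p = 0.283). Of those that did not pass the filter, Cyp4f39, known for its role in skin lipids, had 4, 8 and 2 counts across NOD.B10 and 9, 13 and 10 across BL/10, and Cyp4f14 had 7, 4 and 10 against 5, 7 and 6. The calls of Cyp4f37 and Cyp4f13 were both lost when single libraries were left out. Without any 1 of NOD.B10 replicates 1, 2 and 3 and BL/10 replicates 2 and 3, the adjusted p was 0.0754 to 0.15 for Cyp4f37 and 0.0745 to 0.137 for Cyp4f13, and DESeq2 did not call Cyp4f13.

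Between and beyond the Cyp4f genes lies a row of zinc finger genes, whose products are DNA-binding proteins, many of them repressors of transposable elements. Of 15 members with a Zfp symbol, 14 passed the filter. Among these are the pseudogene Zfp422-ps and 2 genes outside the row, Zfp414 beyond Myo1f and Zfp57 in the distal flank. A positive log2 fold change was found for 12 of the 14, against 7678 of the 15330 genes tested. Zfp799 (chr17:32815449-32830261) was the only one called. Its CPM was 9.03, 9.89 and 11.9 in NOD.B10 and 7.17, 6.97 and 5.74 in BL/10 (log2 fold change 0.63 ± 0.16 (SE), adjusted p = 0.0325), and its exons overlap those of Gm26693, so that reads in the overlap were left out by the counting. The libraries of 7 of the 14 lay higher in NOD.B10 without overlap, against 20.5% of all genes. Zfp871, the next by p, had 51.6, 52.0 and 55.0 CPM in NOD.B10 and 41.1, 45.5 and 45.1 in BL/10 (log2 fold change 0.27, adjusted p = 0.0616). Zfp472 (0.32, adjusted p = 0.106) and Zfp763 (0.43, adjusted p = 0.112) had log2 fold changes of similar size, while Zfp101 had -0.07 (adjusted p = 0.779). The number called depended on single libraries, while 11 to 13 of the 14 had a positive log2 fold change whichever library was left out. Calls over all genes moved too, with 26.3% called without BL/10 replicate 1 and 8.12 to 12.9% without any other single library. Without BL/10 replicate 1, which was the highest BL/10 library for Zfp799, Zfp472, Zfp763 and Zfp563, edgeR called 5 of the 14 (Zfp799, Zfp870, Zfp472, Zfp763 and Zfp563), and without any other single library it called none. Beside this, the share of B cell markers was higher in BL/10 replicate 1 than in the other BL/10 libraries, and whether this bears on the zinc finger genes was not tested. Without NOD.B10 replicates 1, 2 or 3 or BL/10 replicates 2 or 3, the adjusted p of Zfp799 was 0.0595 to 0.108.

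From Rasal3 to Cyp4f13, a span of 556744 bases whose ends were drawn after the values were seen, all 9 tested members had positive log2 fold changes from 0.27 to 1.5, with a median of 0.63. Of the 9, 6 were called (against 17.3% of all genes) and 8 did not overlap between the strains (against 38.0%). Because the ends were chosen on the values, these counts are a description with no test. On the proximal side, 1 of the 17 tested members from Abcg1 to Wiz was called, with a median log2 fold change of 0.04. On the side of the H2 interval, the 9 tested zinc finger genes from Zfp472 to Zfp101 had a median of 0.32 and none was called by edgeR or DESeq2, although 3 had an unadjusted p under 0.05.

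**Figure D3:**
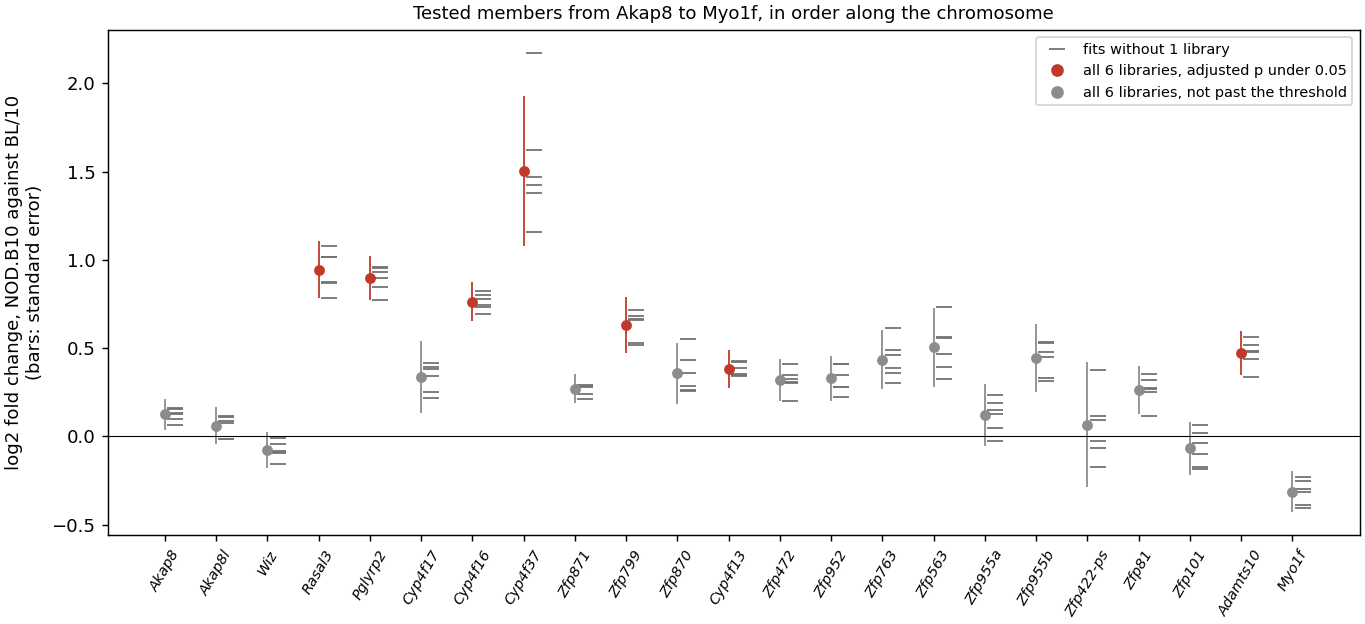
Log2 fold change with standard error (y axis) of the tested members from Akap8 to Myo1f in gene order (x axis), with red for adjusted p under 0.05 and gray dashes for the fits that leave out 1 library each. The values are near 0 up to Wiz, lie between 0.27 and 1.5 from Rasal3 to Cyp4f13 and have a median of 0.32 from Zfp472 to Zfp101.

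Further along the proximal flank, Adamts10 (ENSMUSG00000024299, chr17:33524204-33553782, plus strand) encodes a secreted metalloprotease of the extracellular matrix that associates with fibrillin microfibrils. It had 35.8, 38.7 and 48.6 CPM in NOD.B10 and 30.3, 28.2 and 30.1 in BL/10, with no overlap. Its log2 fold change was 0.47 ± 0.12 (SE, 1.39-fold, adjusted p = 0.0385), and without NOD.B10 replicates 2 or 3 or BL/10 replicates 2 or 3 the adjusted p was 0.0656 to 0.113. From Myo1f to Vps52, the 22 tested members next to the H2 interval had a median log2 fold change of -0.06 and none was called by edgeR, with 6 at an unadjusted p under 0.05 and 1 (Angptl4) called by DESeq2. Angptl4, an inhibitor of lipoprotein lipase, had 41.4, 27.6 and 46.9 CPM in NOD.B10 and 25.8, 29.2 and 22.0 in BL/10, which overlapped (log2 fold change 0.59, adjusted p = 0.0798). Myo1f, a myosin of leukocytes that is abundant in neutrophils, had 102, 81.8 and 93.1 CPM in NOD.B10 and 101, 125 and 118 in BL/10 (log2 fold change -0.31, adjusted p = 0.104). Single libraries changed these calls. Without BL/10 replicate 1, edgeR called 4 of the 22, against 26.3% of all genes in that fit. They were Myo1f (log2 fold change -0.40), March2, Kifc1 and Platr17, all lower in NOD.B10. Without NOD.B10 replicate 2, where 12.9% of all genes were called, edgeR called Angptl4 (0.78, adjusted p = 0.0191). Over all 6 libraries, 7 of 8 neutrophil markers were called lower in NOD.B10 (against 8.22% of all genes) and 1 had a positive log2 fold change (0.58). The part of neutrophils in the values of Myo1f was not tested. March2, which encodes a membrane-bound ubiquitin ligase, had 290, 325 and 207 CPM in NOD.B10 and 249, 416 and 515 in BL/10, which overlapped (log2 fold change -0.52, adjusted p = 0.217). At the inner end of this flank, Vps52, a subunit of a complex that returns vesicles to the Golgi, and Rps18, a ribosomal protein, had log2 fold changes of 0.05 and -0.10 (adjusted p = 0.741 and 0.618).

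At the outer end of the proximal flank, the members from Zfand3 to Dnah8 included none that was called by edgeR or DESeq2, and none of the 5 had an unadjusted p under 0.05. Zfand3, a zinc finger protein, had 72.9, 62.5 and 76.6 CPM in NOD.B10 and 60.8, 53.1 and 66.5 in BL/10 (log2 fold change 0.23, adjusted p = 0.198). Btbd9 had a log2 fold change of -0.02 (adjusted p = 0.913). Glo1, the glyoxalase that clears methylglyoxal, had 63.3, 74.4 and 59.8 CPM in NOD.B10 and 64.1, 98.1 and 79.2 in BL/10, which overlapped (log2 fold change -0.29, adjusted p = 0.245).

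Tmprss3 (ENSMUSG00000024034, chr17:31179272-31198975, minus strand), known for its part in hearing, was the called member with the largest fold change and the fewest reads. The NOD.B10 libraries held 1, 4 and 4 counts and the BL/10 libraries 16, 13 and 20. The mean was 0.177 ± 0.102 CPM in NOD.B10, at the floor of detection, and 0.959 ± 0.154 in BL/10 (SD, n = 3). The log2 fold change was -2.39 ± 0.42 (SE, adjusted p = 0.00834), and without BL/10 replicate 1, the library with the largest share of acinar markers, it was -2.47. BL/10 replicates 2 and 3 also had larger acinar shares (0.186% and 0.0107%) than any NOD.B10 library (at most 0.00315%). The part of pancreatic tissue in the reads of Tmprss3 was not tested.

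The trefoil factor genes lie beside Tmprss3. Tff2, which encodes a secreted peptide that protects mucous epithelia, did not pass the filter because its reads came from few libraries. It had 0 counts in all 3 NOD.B10 libraries and 454, 48 and 1 counts in BL/10 replicates 1, 2 and 3. Against the NOD.B10 floor of 3 counts per library, this was at least 134-fold higher in BL/10 replicate 1 and at least 16.6-fold higher in BL/10 replicate 2, whereas BL/10 replicate 3 was under the floor. Cbs, the cystathionine β-synthase of the transsulfuration pathway, had 1, 2 and 4 counts across the NOD.B10 and 90, 9 and 2 across the BL/10 libraries. Without BL/10 replicate 3, edgeR called Tff2 lower in NOD.B10, against 11.2% of all genes called in that fit. With no filter beyond 1 count it called both Tff2 and Cbs lower in NOD.B10, against 11.5% of all genes. Both genes had the same order of libraries in BL/10 as the acinar markers (1.29%, 0.186% and 0.0107% of counts), and the part of pancreatic tissue in their reads was not tested.

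In the distal flank, the TRIM genes code for ubiquitin ligases, several with a part in antiviral defense. None of the 4 tested of 6 members was called by edgeR, 2 had an unadjusted p under 0.05 and DESeq2 called Trim10. Trim10, which is expressed in erythroid cells and takes part in their differentiation, had 270, 425 and 212 CPM in NOD.B10 and 308, 710 and 732 in BL/10. BL/10 replicate 1 lay among the NOD.B10 libraries (log2 fold change -0.95, adjusted p = 0.113), and without it edgeR called the gene, at -1.26. Erythroid markers had 1.98, 2.41 and 1.41% of the reads across the NOD.B10 libraries and 1.23, 2.57 and 2.99% across those of BL/10, and their part in the values of Trim10 was not tested. Trim39 had 41.9, 48.3 and 47.0 CPM in NOD.B10 and 38.1, 40.9 and 38.2 in BL/10, without overlap (log2 fold change 0.23, adjusted p = 0.117). Trim26 (0.13, adjusted p = 0.419) and Trim15 (0.16, adjusted p = 0.838) had smaller log2 fold changes. Rpp21, the tested member nearest the inner edge of the distal flank, had a log2 fold change of 0.24 (adjusted p = 0.22 by edgeR).

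**Figure D4:**
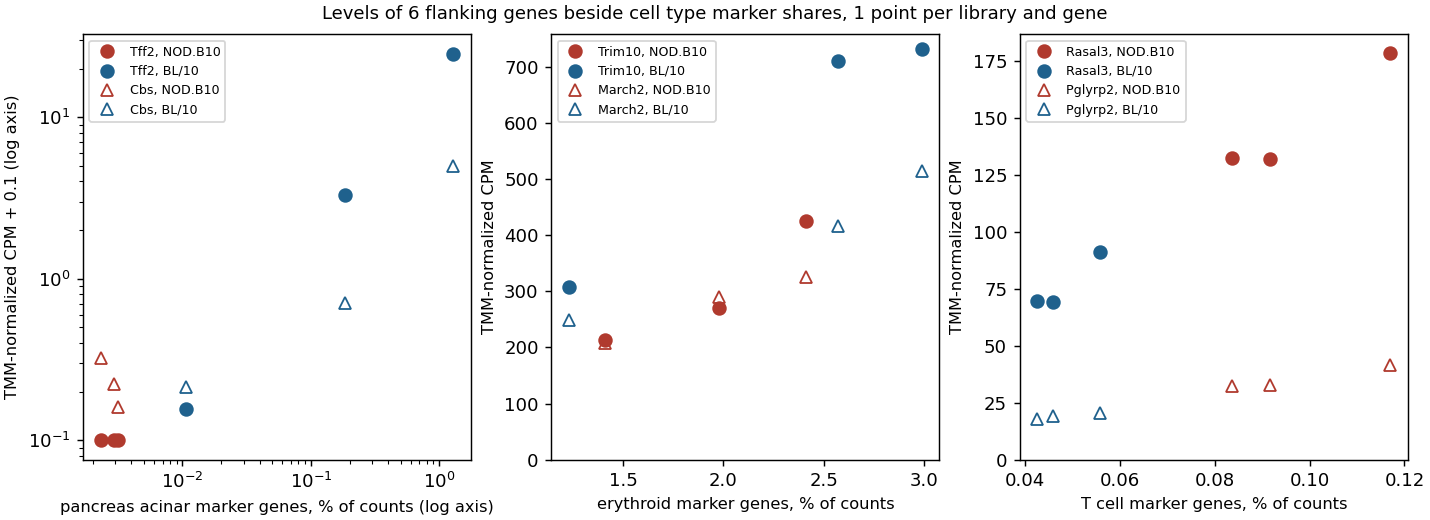
TMM-normalized CPM (y axis) of Tff2 and Cbs, Trim10 and March2, and Rasal3 and Pglyrp2 against the percent of counts on pancreas acinar, erythroid and T cell markers (x axis), with 1 point per library, circles for the first and triangles for the second gene of each panel, red for NOD.B10 and blue for BL/10 (left panel with log axes and 0.1 added to CPM). In each panel the library with the highest marker share also has the highest CPM of both genes, and the strains separate in the T cell panel but not in the erythroid panel. Tff2, Cbs and March2 were named after their values were seen, and Rasal3 and Pglyrp2 because they were called between the strains. The part of these cells or tissues in the levels of the genes shown was not tested.

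Gabbr1 (ENSMUSG00000024462, chr17:37045966-37075067, plus strand), a subunit of the metabotropic receptor for the transmitter GABA, was the called member of the distal flank that was higher in NOD.B10. It had 23.6, 22.0 and 24.9 CPM in NOD.B10 and 19.7, 17.6 and 18.1 in BL/10. Its libraries did not overlap, yet the difference was small, with a log2 fold change of 0.35 ± 0.10 (SE, 1.27-fold, adjusted p = 0.0485). DESeq2 did not call it, and without any 1 of NOD.B10 replicates 1, 2 and 3 and BL/10 replicates 2 and 3 its adjusted p was 0.0663 to 0.148. Its neighbor Ubd, which encodes the interferon-inducible ubiquitin-like modifier FAT10, had 38.9, 14.9 and 28.0 CPM in NOD.B10 and 19.2, 9.46 and 10.3 in BL/10, which overlapped (log2 fold change 1.07 ± 0.38 (SE), adjusted p = 0.0934). DESeq2 called Ubd, as did edgeR without BL/10 replicate 1, without NOD.B10 replicate 2 and with no filter beyond 1 count.

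The last tested genes of the distal flank are Gm26917 (chr17:39843013-39846341, plus strand) and CT010467.1, which lies beside it. By annotation, Gm26917 is a long noncoding RNA and CT010467.1 is ribosomal RNA. Gm26917 had 98.9, 91.5 and 71.0 CPM in NOD.B10 and 186, 110 and 142 in BL/10, without overlap (log2 fold change -0.74 ± 0.20 (SE), adjusted p = 0.0433). CT010467.1 had 303, 472 and 243 CPM in NOD.B10 and 263, 182 and 250 in BL/10, which overlapped, and its log2 fold change of 0.55 had the opposite sign (adjusted p = 0.168). Gm42418 and AY036118 share exon bases with CT010467.1, where reads on more than 1 gene were not counted, and were at 0 in every library. Without NOD.B10 replicates 1, 2 or 3 or BL/10 replicates 1 or 3, the adjusted p of Gm26917 was 0.0523 to 0.145.

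Other groups of members by function held 0 or 1 called gene each. Across all genes tested, 17.3% were called by edgeR, 21.7% by DESeq2, and 34.2% had an unadjusted p under 0.05. No group was tested against these shares. Among chromatin and transcription regulators, 0 of 11 tested members were called by edgeR or DESeq2 and 1 had an unadjusted p under 0.05. Daxx, a histone chaperone, was typical of these, with 52.8, 44.8 and 49.5 CPM in NOD.B10 and 49.3, 51.7 and 48.2 in BL/10 (log2 fold change -0.02, adjusted p = 0.895). Of the 11 tested genes for ribosome, RNA and translation, none was called by either tool and none had an unadjusted p under 0.05. Of 12 signaling genes, Rasal3 was the one called, and of 7 genes listed under mitochondria and metabolism it was Pglyrp2, which acts on bacterial cell walls. Sik1, a salt-inducible kinase among the signaling genes, had 33.4, 38.3 and 48.1 CPM in NOD.B10 and 67.8, 51.4 and 50.9 in BL/10, without overlap (log2 fold change -0.51, adjusted p = 0.074), and DESeq2 called it. Of 8 genes for protein traffic, cytoskeleton and cilia, Adamts10 was called, an extracellular protease rather than a part of these structures. Kifc1, a mitotic kinesin, had 24.8, 32.5 and 22.0 CPM in NOD.B10 and 26.4, 53.5 and 44.9 in BL/10 (log2 fold change -0.66, adjusted p = 0.118).

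The number of called members moved with single libraries, as it did for all genes. It was 5, 6 and 4 without NOD.B10 replicates 1, 2 and 3, and 19, 5 and 5 without BL/10 replicates 1, 2 and 3, while the share of all genes called was 8.12, 12.9 and 8.95% and 26.3, 10.1 and 11.2%. Tmprss3, Rasal3, Pglyrp2 and Cyp4f16 had an adjusted p under 0.05 in each of these 6 fits. Their log2 fold changes ranged from -2.67 to -2.0, from 0.79 to 1.08, from 0.77 to 0.96 and from 0.69 to 0.82. When only the libraries labeled 26 weeks were compared, which leaves BL/10 replicate 1 alone against the 3 NOD.B10 libraries and takes its spread from theirs, the same genes had log2 fold changes of -2.25, 0.69, 0.81 and 0.67, with adjusted p of 0.113, 0.114, 0.057 and 0.0615, and 6.19% of all genes were called. Strain and labeled age thus cannot be told apart for BL/10 replicates 2 and 3.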

How the data were processed

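RNA from the spleens of female mice was sequenced, 3 NOD.B10 and 3 BL/10. The authors deposited unnormalized counts for each gene, made by featureCounts version 1.5.1 from exons of the Ensembl 84 annotation (GRCm38) without strand and without reads that map to several places or genes, per the file header. The paper names Tophat2 as the aligner and the submitters' processing notes name HISAT2 version 2.0.5. The deposited table also gives the length of each gene, used here for RPKM only. Myd88-deficient mice, used in other experiments of the paper, are not among the sequenced libraries.

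Counts were analyzed in R version 4.3.3. Genes kept by filterByExpr of edgeR version 4.0.16 were scaled by TMM, and NOD.B10 was set against BL/10 with the quasi-likelihood test. P-values were adjusted over all 15330 genes by the Benjamini-Hochberg method, with 0.05 as the threshold. An exact permutation test of 3 against 3 libraries cannot go below p = 0.1, so it was not used for single genes. CPM are TMM-normalized, and floors of 3 counts cover counting error only. The standard error of a log2 fold change is its size over the square root of F. Symbols came from GENCODE M21, with 47224 of 47729 matched, and promoters from RefSeq, with 127 of 265 members matched. The code was tested on simulated data.

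Libraries were assigned by description and column name, which the titles contradict. The description of BL/10 replicate 3 shares only its library number and strain with the column. Strains share replicate numbers, but deviations of same-numbered libraries correlated at 0.07, 0.30 and -0.08, so the numbers were not used as pairs. The members, lists and span ends were chosen with earlier results of these data known. All members with adjusted p under 0.05, the tested members nearest the edges of the flanks and up to 4 per list were named. Tff2, Cbs, Ubash3a, Wiz, Daxx, Ubd, March2, Platr17, Zfp101, Zfp563, Zfp870, Cyp4f14 and Cyp4f39 were added after their values were seen. Alternatives were DESeq2 version 1.42.0, DESeq2-type size factors, other filters, a replicate block, each library left out, a threshold of 0.01, members without exon overlap and flanks drawn in. The comparison of libraries labeled 26 weeks was added after seeing the data.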

Additional observations from a re-analysis of the deposited data

How the results depend on the processing

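No called member changed sign under any alternative that tested it. Among named members that were not called, the log2 fold change changed sign with 1 library left out for Btbd9 (-0.139 to 0.0575), Vps52 (-0.0098 to 0.0844), Trim15 (-0.24 to 0.63) and Olfr99 (-0.18 to 0.33), and in the libraries labeled 26 weeks for Glo1 (0.0381) and Olfr99 (-0.29). The 10 called members of both flanks, 8 proximal and 2 distal, stood at 10, 8 and 2 with DESeq2-type size factors, and at 12, 9 and 3 with DESeq2. Of all genes, 17.5% and 21.7% were called in these fits, against 17.3% in the main fit. With no filter beyond 1 count the called members were 13, 11 and 2, Tff2 and Cbs among them, against 11.5% of all genes. With at least 10 counts required in every library they were 6 of 72, 5 of 58 and 1 of 14, against 14.8% of all genes in that fit. With adjusted p under 0.01 they were 4, 4 and 0, with 3 in the bin from 32 Mb instead of 6, and 6.75% of all genes were called. Leaving out 1 library gave 4 to 19 in both flanks, 4 to 16 proximal, 0 to 3 distal and 3 to 8 in that bin, with the highest count without BL/10 replicate 1 throughout. Where edgeR called 0 in the distal flank, 3 to 6 members there had an unadjusted p under 0.05. Among the libraries labeled 26 weeks, chosen after seeing the data, 3 members (Tff2, Cbs and Gm26917), 2 proximal and 1 distal, were called, and edgeR called 0 in that bin, where 5 had an unadjusted p under 0.05. With the outer edges drawn in, the distal flank had 1. With the replicate number as a block there were 8 called members of 78, 4 of them in the bin from 32 Mb, against 18.8% of all genes. Zfp799, Cyp4f13 and Gabbr1 were then not called (adjusted p = 0.0612, 0.063 and 0.0602) and Ubd was. The numbers were not used as pairs, since same-numbered libraries did not all deviate together. Over all genes, 2656 were called at 0.05, 1035 at 0.01, 1269 to 4107 with 1 library left out and 1001 in the libraries labeled 26 weeks. Depth limits Tmprss3 and Cyp4f37, whose lowest libraries had 1 and 3 counts. The cause of these changes was not tested, beyond the fewer samples or genes that enter.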
